A study of Mus musculus with 24 samples.

Results

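Prefrontal cortex RNA of Dyrk1a heterozygous mice given lithium was compared with that of heterozygous mice given fluoxetine. The 12 libraries were chosen by their labels out of 24 in the series: 6 from lithium-treated and 6 from fluoxetine-treated mice, each arm with 3 females and 3 males. All 12 come from C57BL/6J mice at postnatal day 40 that carry 1 copy of the Dyrk1a allele named I48X (called HT here), so the allele is shared by both arms and is no part of the contrast. The other 12 libraries, 6 from HT and 6 from wild-type mice on vehicle, are outside the comparison; they are given as levels and entered only an alternative fit of all 24 libraries. No source used here states the dose, the route or the length of treatment. Whether the libraries of a group came from separate animals is not stated either, and the p-values therefore measure only the spread between these libraries, part of which may be technical.

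DYRK1A is a dosage-sensitive protein kinase, and loss of a copy in people is associated with intellectual disability and autism. Lithium is a mood stabiliser that inhibits glycogen synthase kinase 3 and the phosphatases that recycle inositol, and fluoxetine is an antidepressant that blocks serotonin reuptake. Oxidative phosphorylation passes electrons through complexes I to IV of the inner mitochondrial membrane and uses the resulting proton gradient to make ATP at ATP synthase. Its subunits are encoded mostly by nuclear genes and, for a small core, by mitochondrial DNA.

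Nuclear genes of oxidative phosphorylation were slightly higher under lithium than under fluoxetine, in 71 of 72 genes, with a median log2 difference of 0.15. Of all genes tested, 49.0% were higher under lithium. Among the genes of smallest p, Ndufb6, Cops9 and Rpl41 were higher and Klf4 and P4ha1 lower, each with no overlap between the arms. No gene passed the test across all genes: limma with sex as a block called 0 of 16793 genes at an adjusted p under 0.05 (0% of the genes tested), and the smallest adjusted p was 0.543. At an unadjusted p under 0.05 there were 437 genes higher under lithium (2.6% of those tested) and 264 lower (1.57%), 701 in all where chance alone would give 840. That total rested on single libraries: it was 2296 without lithium male replicate 1, 1053 without fluoxetine male replicate 2 and 436 without lithium male replicate 2. It was 1607 without the 3 libraries of highest olfactory bulb marker score, 1127 with that score as a covariate, 217 with a batch term and 238 within batch P40_L2. On the reads recovered from the deposited values, edgeR also called 0, and DESeq2 called 15, 10 of them higher and 5 lower. Over all genes the median log2 difference was -0.003.

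The batch named in the labels, whose kind they do not state, nearly follows the drug. All 6 lithium libraries are in batch P40_L2, and 5 of the 6 fluoxetine libraries are in P40_L1, as are all vehicle libraries. The exception is HT fluoxetine female replicate 3, which shares the batch of the lithium libraries. Each main value below is therefore followed, where it matters, by the difference within P40_L2. Sex is a block in that fit too, and the single fluoxetine library is a female. The within-batch difference therefore sets the lithium females against that library, and the lithium males do not enter it. Males have no comparison within the batch. Drug and batch cannot be told apart where the within-batch value is near 0. Elsewhere they are not separated either, because the value rests on that 1 library. Depth ran from 24133344 to 35940460 recovered reads per library. Markers of olfactory bulb neurons varied widely within both arms, with scores (mean log2 deviation of 12 genes) from -3.15 to 2.77 under lithium and from -2.57 to 2.97 under fluoxetine. The first principal component, 48.0% of the variance, ran along that score. Of the markers, Tbx21 was at 0 in 1 library of each arm and Otx2 in 1 fluoxetine library. In bulk tissue, fewer cells of a type and less RNA per cell cannot be told apart.

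The promoters of Ndufb6, P4ha1 and Klf4 are shown. Ndufb6 had the smallest p of the genes higher under lithium. Klf4 and P4ha1 had the smallest p of the lower genes whose arms did not overlap. Other non-overlapping genes of small p, such as Cops9 and Rpl41, are not shown. For those shown, the 250 bases before the RefSeq start lie outside any transcript of the gene. The sequences are from RefSeq on GRCm38.p6, read 5′ to 3′ on the strand of the gene. Capitals mark matches to motifs searched on both strands: CCGGAAG (ETS family), GCGCA and GCGC separated by any base (NRF1), CACGTG (E-box) and AAGATGGC (YY1). Ndufb6 lies at chr4:40279422-40279671 (minus strand) and holds 1 ETS match, P4ha1 at chr10:59323046-59323295 (plus strand) with 2 NRF1 matches, and Klf4 at chr4:55532476-55532725 (minus strand) with 1 E-box.
Ndufb6: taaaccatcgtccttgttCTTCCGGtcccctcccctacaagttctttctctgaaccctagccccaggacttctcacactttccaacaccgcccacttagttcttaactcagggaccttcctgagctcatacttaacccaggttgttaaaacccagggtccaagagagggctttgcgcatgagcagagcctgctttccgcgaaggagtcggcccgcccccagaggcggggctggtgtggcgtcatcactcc
P4ha1: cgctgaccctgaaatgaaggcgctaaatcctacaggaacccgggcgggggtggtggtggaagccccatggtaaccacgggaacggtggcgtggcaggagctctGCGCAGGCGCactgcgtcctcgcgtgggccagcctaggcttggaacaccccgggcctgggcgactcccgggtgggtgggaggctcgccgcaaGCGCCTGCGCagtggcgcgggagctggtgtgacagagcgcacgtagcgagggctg
Klf4: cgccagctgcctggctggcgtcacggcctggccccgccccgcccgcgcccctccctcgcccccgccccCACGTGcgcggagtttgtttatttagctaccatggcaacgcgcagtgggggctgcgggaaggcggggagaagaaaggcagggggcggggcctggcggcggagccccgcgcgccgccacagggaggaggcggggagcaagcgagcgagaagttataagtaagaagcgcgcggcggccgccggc

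Of the 12154 tested genes with a promoter in the table, 12.4% hold an ETS match, 7.47% an NRF1 match, 8.06% an E-box and 1.88% a YY1 match. Among oxidative phosphorylation genes, 60 had a promoter, of which 10 (16.7%) hold an ETS match, 10 (16.7%) an NRF1 match, 5 (8.33%) an E-box and 0 a YY1 match. A match is a description of these letters and not evidence of binding.

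Dyrk1a itself (ENSMUSG00000022897) stood at 2447 ± 113 normalised read counts (SD, n = 6) under lithium and 2476 ± 97.5 under fluoxetine. The arms overlapped, from 2254 to 2584 under lithium and from 2353 to 2589 under fluoxetine. The log2 difference, lithium minus fluoxetine here and throughout, was -0.02 ± 0.04 (standard error), with a limma adjusted p of 0.971. Both arms carry the allele, so this level does not check the labels. In the list of DYRK and CLK kinases with their partners, 10 of 21 genes were higher and 0 had an unadjusted p under 0.05 in either direction, with a median of 0.00.

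**Figure D1:**
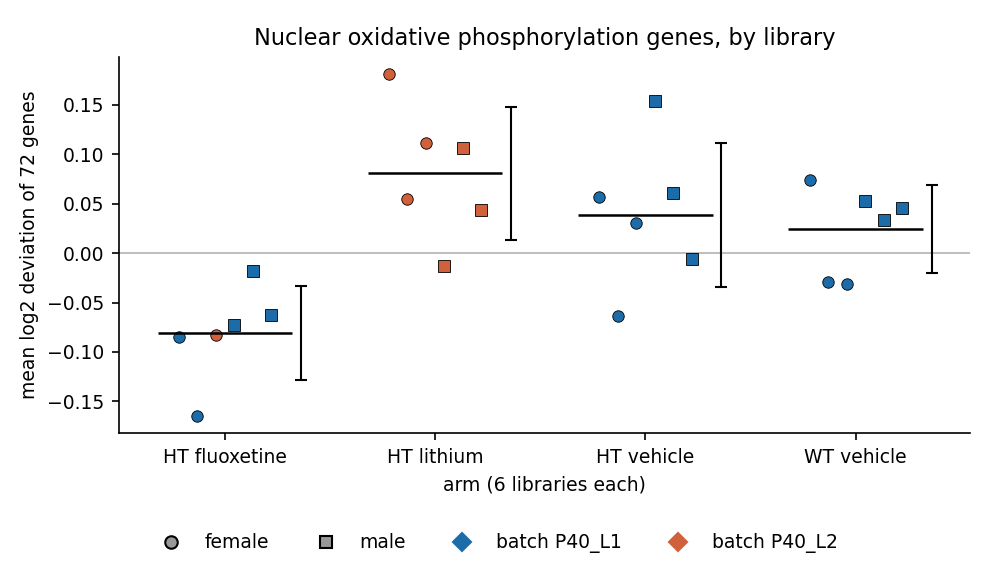
Mean log2 deviation of the 72 nuclear oxidative phosphorylation genes (vertical axis) in each library of the 4 arms. Circles are females and squares males, colour is the batch, the horizontal line is the arm's mean and the bar 1 SD. The 6 lithium libraries, from -0.013 to 0.181, sit above the 6 fluoxetine libraries, from -0.165 to -0.018, and the fluoxetine library of batch P40_L2 is at -0.083.

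Complex I, the NADH dehydrogenase, had 35 of its 36 nuclear subunit genes higher under lithium, with a median log2 difference of 0.15, and Ndufa10 was the exception at -0.01. At an unadjusted p under 0.05 there were 19 higher and 0 lower, against 2.6% and 1.57% of all genes. In 4 of the 36 every lithium library exceeded every fluoxetine library, which held for 39 genes (0.232%) of those tested. No member passed limma's adjustment over all genes in the fit of the 12 libraries. DESeq2 called these same 4 (Ndufb6, Ndufc1, Ndufa3 and Ndufs3), and limma on all 24 libraries called Ndufb6 and Ndufs3.

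Ndufb6, an accessory subunit in the membrane arm of complex I (ENSMUSG00000071014, GRCm38 chromosome 4, 40270591 to 40279421), had the smallest p of all genes. Its normalised read counts were 927, 1041 and 1083 (lowest, median, highest) under lithium and 799, 817 and 886 under fluoxetine. The lowest lithium library was thus above the highest fluoxetine library. The log2 difference was 0.30 ± 0.05 (limma adjusted p = 0.543; DESeq2 adjusted p = 0.0012), and within batch P40_L2 it was 0.39. HT vehicle libraries held 962 on average.

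Ndufs3, a core subunit of the arm that carries electrons, ranged from 2171 to 2406 under lithium with a median of 2328. Under fluoxetine it ranged from 1863 to 2058 with a median of 1988. The arms did not overlap, and the log2 difference was 0.22 ± 0.04 (limma adjusted p = 0.576). The accessory subunits Ndufc1 and Ndufa3 gave the same picture, with no overlap and log2 differences of 0.29 ± 0.05 and 0.28 ± 0.06. Ndufa1, with the largest difference of the complex at 0.32 ± 0.11, did overlap between arms.

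At complex III, the cytochrome bc1 complex, all 9 genes were higher, 4 of them at an unadjusted p under 0.05, with a median of 0.13. Uqcrq held 2498, 2935 and 3328 counts (lowest, median, highest) under lithium and 2085, 2418 and 2567 under fluoxetine. The arms overlapped only where the lowest lithium library, male replicate 1, fell below the highest fluoxetine library, and the log2 difference was 0.31 ± 0.07 (limma adjusted p = 0.877). The hinge subunit Uqcrh, at 0.23 ± 0.05, did not overlap. Uqcrb was the least different at 0.00 ± 0.05. Cycs, the soluble electron carrier cytochrome c, was at 0.01 ± 0.06.

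At complex IV, cytochrome c oxidase, all 11 genes were higher, 7 at an unadjusted p under 0.05, with the largest median of the complexes at 0.20. Ndufa4, a subunit of complex IV despite its name, held 4050, 4438 and 4625 counts under lithium and 3448, 3637 and 3900 under fluoxetine. All lithium libraries were above all fluoxetine libraries, and the log2 difference was 0.26 ± 0.05 (limma adjusted p = 0.543). Fluoxetine female replicate 3, the library of the lithium batch, held 3829 counts and so stayed with its arm. Cox7b and Cox7a2, small accessory subunits, had log2 differences of 0.26 ± 0.06 and 0.36 ± 0.09 with overlapping arms.

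ATP synthase had all 15 genes higher, 8 at an unadjusted p under 0.05, but a smaller median of 0.10. Atp5e, the epsilon subunit, held 1058, 1150 and 1277 counts under lithium and 792, 954 and 1001 under fluoxetine. The arms did not overlap, and the log2 difference was 0.32 ± 0.07 (limma adjusted p = 0.59). Atp5a1 and Atp5b, the subunits of the catalytic head, were at 0.02 ± 0.07 and 0.01 ± 0.07. Atp5g2 was at 0.45 ± 0.14 over all 12 libraries but at -0.01 within batch P40_L2.

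Over both lists, 38 of 72 genes had an unadjusted p under 0.05 with lithium higher and 0 with lithium lower. DESeq2 called 7 of the 72, Ndufa4, Atp5e and Cox7b besides the 4 of complex I. The summed level of the 72 genes ran from 225213 to 254751 under lithium and from 209244 to 235985 under fluoxetine, so the sums overlapped while the mean log2 deviations did not. HT vehicle scores ran from -0.064 to 0.154 and overlapped both arms. Within batch P40_L2, where only females are compared, the median was 0.19, with 70 of 72 genes higher. In females of both batches it was 0.23, and males have no within-batch value. With a batch term the median was 0.16, also with 70 higher. Fewer members then had an unadjusted p under 0.05: 11 within the batch and 2 with the batch term, in place of 38. When each library was left out in turn, 29 to 44 did. The fluoxetine library of the lithium batch lay nearer to the fluoxetine mean than to the lithium mean for 66 of the 72 genes. The share was 57.8% for all genes. Genes were also picked by an unadjusted p under 0.05 in the fit without that library. For those higher under lithium the share was 67.9% (224 of 330), and for those lower 51.7% (108 of 209). All these counts rest on that library alone, and they do not separate drug from batch. With the olfactory bulb score as a covariate the median of the 72 genes was 0.15, and without the 3 libraries of highest bulb score it was 0.19.

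By sex, the median was 0.23 in females (72 of 72 genes higher) and 0.07 in males (60 of 72). The difference was larger in females for 67 genes, against 8283 of all 16793. For 3 of the 67 (Ndufb5, Uqcr11 and Ndufb3) the interaction had an unadjusted p under 0.05, against 140 of all genes in that direction. Other lists leaned the same way, such as mitochondrial ribosomal proteins (68 of 78), proteasome subunits (27 of 30) and microglia (13 of 14). Autism risk genes (9 of 29) leaned the other way. The fluoxetine library of batch P40_L2 is a female. No gene passed the interaction test after adjustment: limma had 0 calls among 16793 genes (0%) and 265 at unadjusted p under 0.05, and edgeR had 0 calls. The genes with the smallest interaction p were Gm38431, Gkn3 and Gm44502, with differences (females minus males) of -1.16, 1.47 and 5.27 and adjusted p of 0.988.

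**Figure D2:**
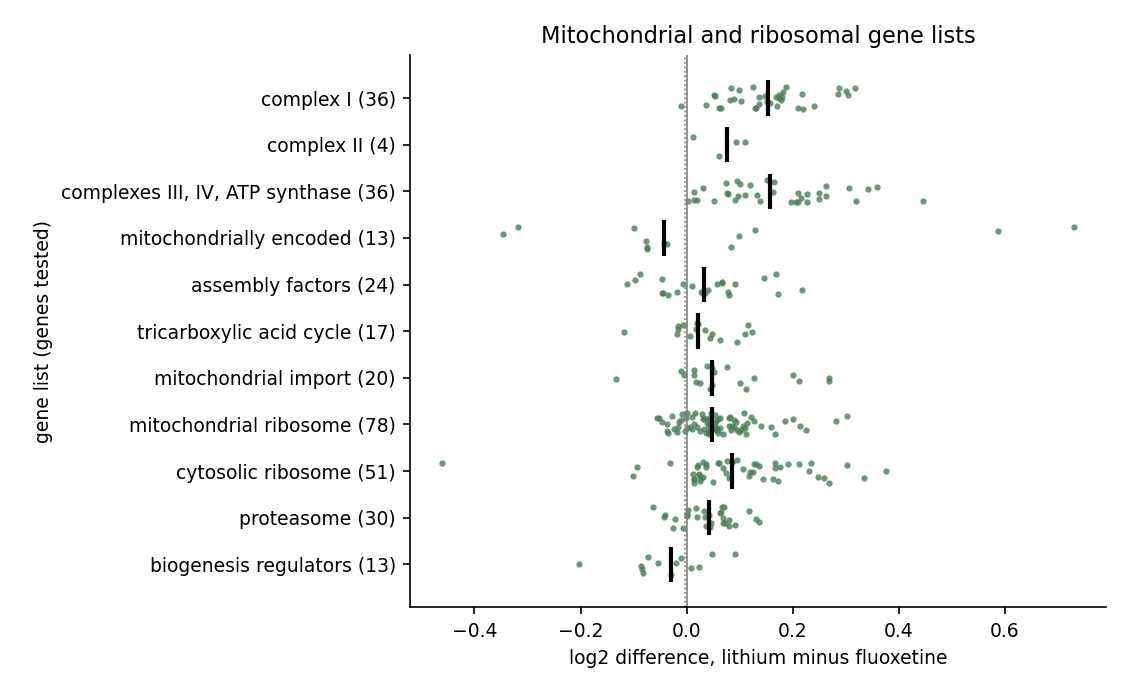
Log2 difference, lithium minus fluoxetine (horizontal axis), of every tested gene in 11 mitochondrial, ribosomal and proteasome lists. Each point is a gene, the black bar is the list's median, the solid line is 0 and the dotted line the median of all genes. Points of complexes I, III, IV and ATP synthase lie almost wholly to the right of 0, and the 13 mitochondrially encoded transcripts scatter on both sides.

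Other mitochondrial lists had smaller medians. Transcripts encoded by mitochondrial DNA had 5 of 13 higher and 0 at an unadjusted p under 0.05, with a median of -0.04. They varied widely, and mt-Co2, a core complex IV subunit, stood at 96726 ± 48029 under lithium and 57632 ± 25046 under fluoxetine (log2 difference 0.73 ± 0.35). The following 6 lists were added after values had been seen. All 4 genes of complex II, succinate dehydrogenase, were higher, with a median of 0.08, and Sdhb at 0.11 ± 0.05 had the largest difference. Mitochondrial ribosomal proteins were higher in 63 of 78 genes (7 at an unadjusted p under 0.05 and 0 lower), with a median of 0.05. Mrpl33 at 0.22 ± 0.06 was the member whose arms did not overlap. Import genes were higher in 17 of 20 (median 0.05), with Timm13 at 0.20 ± 0.06, and tricarboxylic acid cycle genes in 12 of 17 (median 0.02). Assembly factors of complexes I and IV were higher in 15 of 24 (median 0.03), and regulators of mitochondrial biogenesis in 4 of 13 (median -0.03).

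Cytosolic ribosomal proteins, which build the translating ribosome, were higher in 47 of 51 genes, 12 at an unadjusted p under 0.05 and 0 lower, with a median of 0.09. Within batch P40_L2 the median was 0.16. It was lowest, at 0.05, without fluoxetine female replicate 2 and highest, at 0.13, without fluoxetine male replicate 1. In Rpl17, of the large subunit, every lithium library exceeded every fluoxetine library, though narrowly, at 4932 for the lowest lithium and 4931 for the highest fluoxetine library. Its log2 difference was 0.23 ± 0.07, and 0.06 within batch P40_L2. Rps20, of the small subunit, was at 0.25 ± 0.07 with overlapping arms. Outside the list, Rpl41, a very short protein of the large subunit (ENSMUSG00000093674, chromosome 10, 128548114 to 128549305), held 5647, 5866 and 6459 counts under lithium and 3969, 4699 and 5114 under fluoxetine. The arms did not overlap, and the log2 difference was 0.36 ± 0.07 (limma adjusted p = 0.543; DESeq2 adjusted p = 0.00304), with 0.24 within batch P40_L2. Ribosomal protein genes share sequence with many pseudogene copies, so their counts are uncertain.

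The difference also varied with transcript length, taken as that of the gene's longest annotated transcript, coding ones first. That transcript need not be the one expressed, so the bins and the length correction are approximate. The median log2 difference was smaller in each longer of 5 bins of transcript length, from 0.15 below 600 bases (202 genes) through 0.09, 0.04 and -0.003 to -0.03 above 4000 bases. The share of genes higher under lithium was 73.3% below 600 bases, 69.9% at 600 to 1000 bases and 39.1% above 4000 bases. Across 16781 genes, which are not independent replicates, the Spearman correlation of the difference with length was -0.21 and with GC content 0.24. In the same bins the oxidative phosphorylation genes had medians of 0.26 (6 genes), 0.18 (28), 0.13 (22), 0.10 (12) and 0.14 (4), each above the other genes of its bin. By library, the median deviation of transcripts under 600 bases ran from 0.04 to 0.20 under lithium and from -0.22 to 0.16 under fluoxetine. The arms overlapped: fluoxetine male replicate 1 (0.16) and female replicate 1 (0.08) lay within the lithium range, and male replicate 2 (-0.22) and female replicate 2 (-0.13) were the lowest. With length and GC trends removed from each library, the median of the 72 genes was 0.11, with 69 higher, and that of the cytosolic ribosomal proteins 0.05, with 38 of 51 higher.

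**Figure D3:**
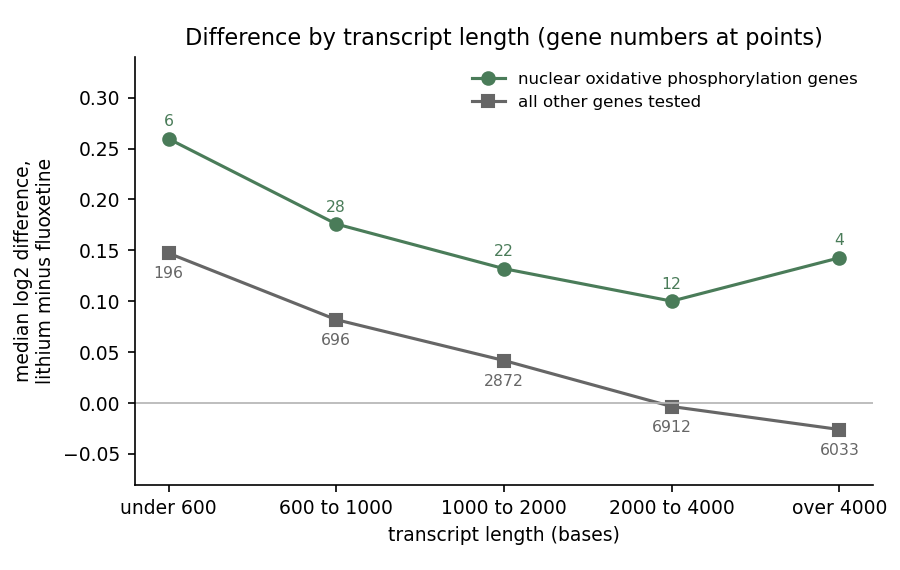
Median log2 difference, lithium minus fluoxetine (vertical axis), by bin of transcript length in bases (horizontal axis), for oxidative phosphorylation genes (circles) and all other tested genes (squares), with the number of genes at each point. Length is that of the gene's longest annotated transcript, which need not be the one expressed. The oxidative phosphorylation median, 0.26 in the shortest bin and 0.10 at 2000 to 4000 bases, is above that of other genes in all 5 bins.

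Outside these groups, Cops9, a subunit of the COP9 signalosome that removes NEDD8 from cullin ubiquitin ligases (ENSMUSG00000073616, chromosome 1, 92637145 to 92641985), was higher under lithium. It held 810, 900 and 1008 counts against 635, 707 and 760 under fluoxetine. The arms did not overlap, and the log2 difference was 0.35 ± 0.06 (limma adjusted p = 0.543; DESeq2 adjusted p = 0.00304) and 0.36 within batch P40_L2. Gm28285, a protein-coding gene model, was at 0.54 ± 0.11 and also did not overlap. In the added list of COP9 subunits, 8 of 10 were higher, with a median of 0.07.

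Among the genes lower under lithium, Klf4, a zinc-finger transcription factor (ENSMUSG00000003032, chromosome 4, 55527143 to 55532466), held 157, 189 and 226 counts under lithium and 231, 257 and 361 under fluoxetine. The highest lithium library was below the lowest fluoxetine library, which held for 15 genes (0.0893%) in this direction. The log2 difference was -0.52 ± 0.09 (limma adjusted p = 0.543; DESeq2 adjusted p = 0.00397) and -0.63 within batch P40_L2. The mean was 188 in lithium libraries and 188 in HT vehicle libraries.

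P4ha1, the catalytic subunit of the prolyl hydroxylase that matures collagen and a hypoxia-inducible gene (ENSMUSG00000019916, chromosome 10, 59323296 to 59373304), held 906, 966 and 1088 counts under lithium and 1110, 1153 and 1201 under fluoxetine. The arms did not overlap, and the log2 difference was -0.24 ± 0.05 (limma adjusted p = 0.543; DESeq2 adjusted p = 0.00348), with -0.30 within batch P40_L2. Slc2a1, the glucose transporter of the blood-brain barrier, was at -0.27 ± 0.06 over all 12 libraries (DESeq2 adjusted p = 0.0299) but at -0.01 within P40_L2. Its level in fluoxetine female replicate 3 was 2875, inside the lithium range of 2702 to 3027. In the hypoxia list 6 of 17 genes were higher and 4 lower ones had an unadjusted p under 0.05, with a median of -0.08 that was -0.005 within the batch.

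**Figure D4:**
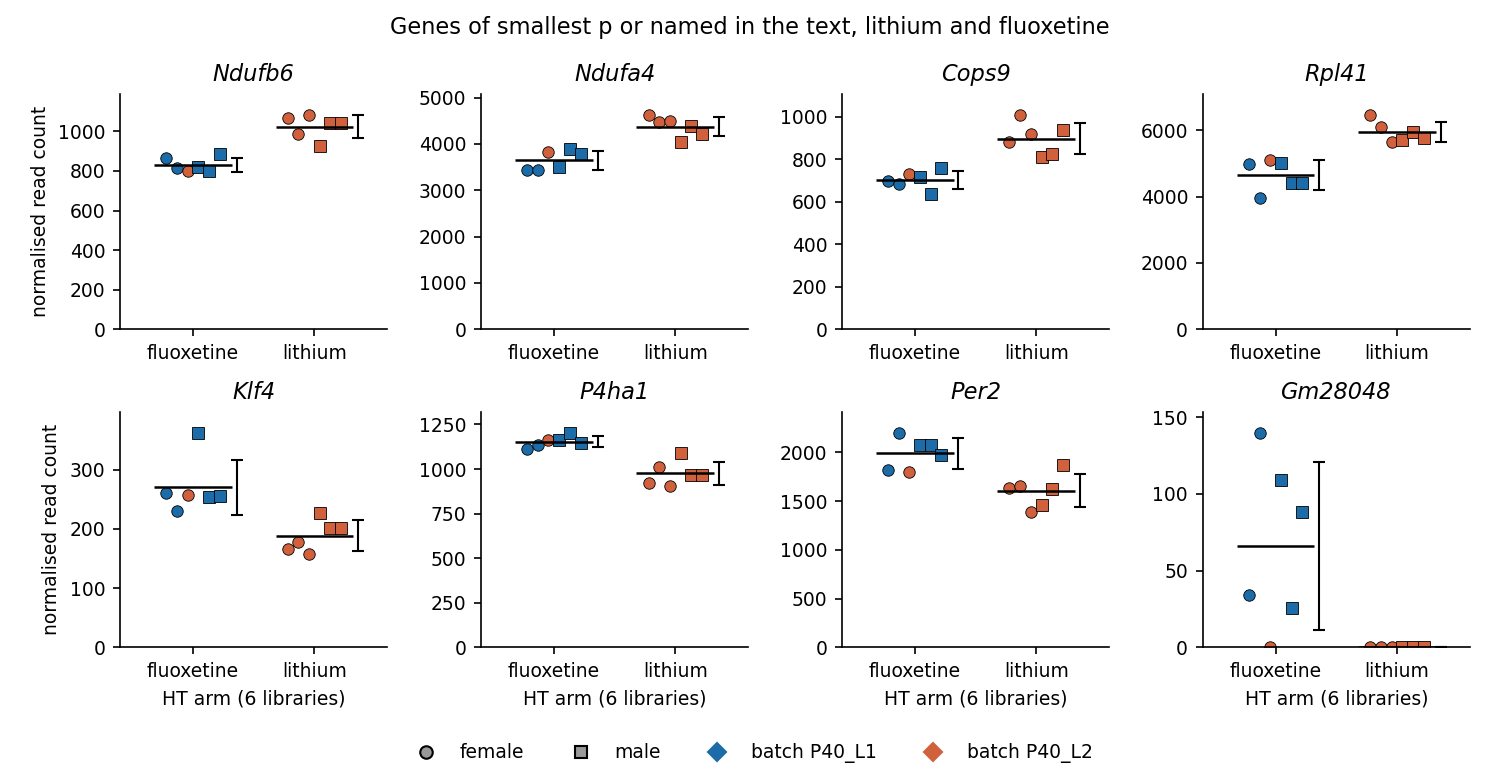
Normalised read counts (vertical axes, from 0) of 8 genes in the 6 fluoxetine and 6 lithium libraries. Circles are females and squares males, colour is the batch, the line is the mean and the bar 1 SD. Ndufb6, Ndufa4, Cops9, Rpl41, Klf4 and P4ha1 show no overlap, Per2 overlaps, and Gm28048 is at 0 in all libraries of batch P40_L2.

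Gm28048, a protein-coding gene model, and Rpl15-ps3, a ribosomal pseudogene, followed the batch. Gm28048 was at 0 in all 6 lithium libraries and in fluoxetine female replicate 3, and between 25.4 and 140 counts in the other 5 fluoxetine libraries. Rpl15-ps3 was at 0 in the same 7 libraries and between 5.2 and 187 in the others. No difference between the drugs is therefore seen within batch P40_L2 for either. Both were called by DESeq2 (adjusted p = 0.00348 and 0.00766). Gm12671, another pseudogene, had reads in fluoxetine female replicate 1 (53.9) and male replicate 1 (316) and none in the other 10 libraries.

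The circadian clock genes, which drive daily cycles of transcription by a negative feedback loop, were lower in 17 of 19 members, 4 of them at an unadjusted p under 0.05 and 0 higher. Per2, a repressor of the loop, held 1387, 1633 and 1875 counts under lithium and 1797, 2026 and 2197 under fluoxetine, a log2 difference of -0.31 ± 0.07 (limma adjusted p = 0.877). Lithium male replicate 3 alone reached into the fluoxetine range. Nr1d2, a nuclear receptor of the second loop, did not overlap, at 2735, 3206 and 3306 against 3421, 3511 and 3575, with a difference of -0.18 ± 0.06. Cry1 and Bhlhe41, further repressors, were at -0.30 ± 0.12 and -0.18 ± 0.07. Within batch P40_L2 Per2 was at -0.21 and Cry1 at -0.15, and for both the fluoxetine library of that batch lay nearer to the lithium mean. The list's median was -0.07 and, within batch P40_L2, -0.11. No source used here states the hour of tissue collection.

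Immediate early genes, which are transcribed within minutes of neuronal activity, had opposite signs in the fit of all libraries and within the batch. Over all 12 libraries 13 of 19 were higher under lithium, 6 at an unadjusted p under 0.05 and 1 (Klf4) lower, with a median of 0.20. The median was lowest, at 0.07, without fluoxetine male replicate 3 and highest, at 0.35, without fluoxetine female replicate 3. Within P40_L2 2 of 19 were higher and the median was -0.19. Npas4 held 702, 1052 and 1397 counts under lithium and 329, 593 and 1117 under fluoxetine, with 876 in fluoxetine female replicate 3. Its log2 difference was 0.64 ± 0.24 over all libraries and -0.09 within the batch, and that of Junb was 0.43 ± 0.14 and -0.18. The within-batch values take the lithium females only. Npas4 averaged 1008 over all 6 lithium libraries, which is above fluoxetine female replicate 3. In females of both batches the difference was 0.57 for Npas4 and 0.33 for Junb, and the list's median was 0.10. Drug and batch cannot be told apart for these genes, as for the others. Of the ERK feedback inhibitors, which restrain growth factor signalling, 5 of 13 were higher, with a median of -0.03. At an unadjusted p under 0.05, 1 was lower, Spred2 at -0.21 ± 0.05, and 1 higher, Dusp1 at 0.35 ± 0.15. Within batch P40_L2 1 of 13 was higher and the median was -0.17.

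Genes of the pathways the drugs act on were next compared. Of 16 genes for lithium-inhibited enzymes and inositol supply, 6 were higher, and 0 had an unadjusted p under 0.05 in either direction. Gsk3a and Gsk3b, the kinases lithium inhibits, were at 0.06 ± 0.10 (95% interval -0.16 to 0.29) and -0.04 ± 0.08 (-0.21 to 0.14). Impa1 and Impa2, the inositol monophosphatases, were at -0.03 ± 0.05 and 0.19 ± 0.10, Inpp1 at -0.07 ± 0.06 and Bpnt1 at -0.07 ± 0.04. Among 21 beta-catenin and Wnt feedback targets 6 were higher, and 1, the transcription factor Lef1, was lower at an unadjusted p under 0.05, at -0.24 ± 0.11 (limma adjusted p = 0.966). Axin2, a feedback inhibitor of the pathway, stood at -0.03 ± 0.05. Slc6a4, the serotonin transporter that fluoxetine blocks, was not analysed here. Of 18 genes of serotonin receptors and turnover 8 were higher and 0 had an unadjusted p under 0.05. Htr1a and Htr2a, which encode serotonin receptors, were at 0.09 ± 0.28 and -0.02 ± 0.17, Htr2c at 0.56 ± 0.30, and Maoa, which degrades serotonin, at -0.02 ± 0.05. Bdnf, a neurotrophin, was at 0.07 ± 0.19. The intervals are wide for the receptors, so differences of the size seen in oxidative phosphorylation genes were not detectable in them.

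Genes of other groups that were fixed by name gave these values. Glucocorticoid-induced genes were higher in 2 of 18, with a median of -0.10. At an unadjusted p under 0.05, 2 were lower, among them Sult1a1 at -0.27 ± 0.08. Only 1 was higher, Dusp1 at 0.35 ± 0.15, which was at -0.14 within batch P40_L2. Endoplasmic reticulum chaperones and stress genes were higher in 8 of 22 (median -0.04). At an unadjusted p under 0.05, 2 were lower, among them Hspa5 at -0.13 ± 0.05, and 1 was higher, Atf4 at 0.10 ± 0.04. Interferon-response genes were higher in 2 of 18 (median -0.16), with Ifit3 at -0.46 ± 0.19. That median was smallest in size, at -0.08, without fluoxetine male replicate 1. Klf11 and Zfp667, zinc-finger factors named from earlier results, were at 0.21 ± 0.07 and -0.07 ± 0.05.

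Among cell type markers, all 14 of myelin and mature oligodendrocytes were higher under lithium, with a median of 0.18 that was 0.42 within batch P40_L2 and 0.07 without the 3 libraries of highest bulb score. Mog, a myelin surface protein, was at 0.33 ± 0.14. Microglial markers were higher in 1 of 14, with a median of -0.07 over all libraries and 0.14 within P40_L2. The within-batch value compares females only. Over both batches the microglial median was 0.01 in females and -0.18 in males. Excitatory neuron markers were higher in 11 of 14 (median 0.12). That median was 0.001 with the bulb score as a covariate, 0.03 without the 3 libraries of highest bulb score, and between -0.01 (without fluoxetine male replicate 1) and 0.26 (without lithium male replicate 1) when each library was left out. Astrocyte markers were higher in 4 of 14 (median -0.06). All 12 olfactory bulb markers were lower over the 12 libraries (median -0.60), 0 of them at an unadjusted p under 0.05. The median was -1.68 in females and 0.26 in males, where 9 of 12 were higher. It ran from -0.14 without fluoxetine male replicate 1 to -1.33 without fluoxetine male replicate 3. The plot of list medians under 5 fits gives the other lists with the bulb score as a covariate.

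**Figure D5:**
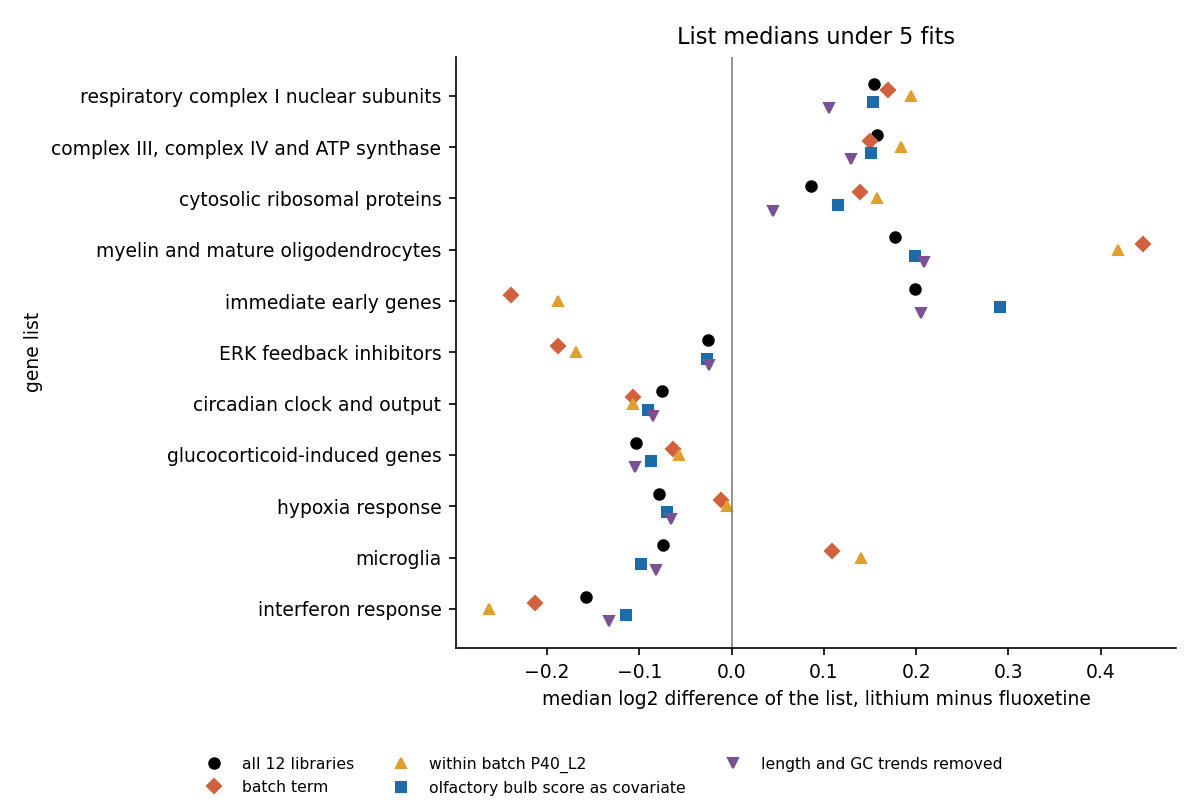
Median log2 difference, lithium minus fluoxetine (horizontal axis), of 11 gene lists under 5 fits, shown by marker shape. The medians of the oxidative phosphorylation and ribosomal lists stay above 0 under all 5. The immediate early gene median, 0.20 over all libraries, is -0.19 within batch P40_L2, and the microglial median passes from -0.07 to 0.14. The within-batch fit compares females only, whereas the fit of all libraries pools both sexes.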

How the data were processed

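The authors deposited a table of normalised read counts (a signal in which reads are divided by a library's size factor) for 18240 genes in 24 libraries. Per the labels' protocols, the libraries were made with a stranded kit that selects polyadenylated RNA. The submitters' processing notes name DESeq2 1.19.11, Salmon 0.11.2, R 3.6.0 and the build GRCm38, with no role for each. Within a library the deposited values are whole multiples of the value of 1 read, and 100% came out whole within 0.01 of a read. No 2 libraries agreed within sampling noise (smallest chi-square per gene 8.71, where 1 would be noise). Symbols and coordinates are from GENCODE M21, which matched 18227 genes.

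The fit used R 4.3.3 and limma 3.58.1 on log2(value + 1), with an intensity trend and sex as a block, for the 16793 genes whose mean over the 12 libraries reached 10; 1447 were left out. Fold changes are on that log2 scale and understate those of low genes. P-values were adjusted by Benjamini-Hochberg over all genes tested. DESeq2 1.42.0 and, with TMM scaling, the quasi-likelihood test of edgeR 4.0.16 were run on the recovered reads as alternatives. Other alternatives were 2 pseudocounts (0.5 and 5), 2 filters, other scalings, all 24 libraries in 1 fit, a batch term, the within-batch fit, marker scores as covariates, and leaving out each library. The script was tested on simulated data of the same size.

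The genes named are those of smallest p, up to 5 in each direction, up to 4 members of each list in order of p, and genes fixed by name. Members and lists were chosen with earlier results of these data known; 8 lists and 3 alternatives were added after values had been seen. Ndufa10, Ndufa1, Uqcrb, Uqcrh, Cycs, Cox7a2, Atp5a1, Atp5b and Atp5g2 were also named after their values were seen.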

Additional observations from a re-analysis of the deposited data

Results flagged for a closer look

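In 198 groups of 6 libraries (99 named genes in 2 arms), 14 had a library far from the other 5, where chance puts about 1 group in 20 past the limit used. Lithium male replicate 1 gave 6 of them: Cdhr1 at 8060 normalised read counts and Tshz1 at 5872, both olfactory bulb markers, were above the other lithium libraries, as was Pdia4 at 864, and Gsk3a at 4938, Ccnd1 at 1524 and Timm8b at 1305 were below them. Fluoxetine male replicate 1 stood above its arm for Klf4 at 361, Gm12671 at 316 and Gkn3 at 129.7. Fluoxetine male replicate 3 was below its arm for Hspa5, at 4992.

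The choroid plexus marker Ttr was at 781 in fluoxetine female replicate 2, against 9.2 to 19.4 in the other 5, and at 44.95 in lithium female replicate 3. The striatal marker Drd2 was at 81.3 in lithium female replicate 1. Gm44502 was at 27.0 in lithium female replicate 2.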

How the results depend on the processing

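The number of genes called between lithium and fluoxetine was 0 in limma with sex as a block, 15 with DESeq2 on recovered reads, 4 with all 24 libraries in 1 fit (Ndufa4, Ndufb6, Ndufs3 and Cops9), 1 with a batch term (Gm43110) and 1 without fluoxetine female replicate 3 (Gm28048). Leaving out each library in turn gave 0 to 1. The interaction with sex had 0 calls, 0 in every omission of a library, and 3 with the replicate block. Deviations of same-numbered libraries correlated at 0.26 to 0.73 in 5 of 6 pairs and at 0.06 in the other, and 2 of 6 libraries correlated best with their own number. Nothing in the labels ties the numbers to a shared source, so they were not taken as pairs. With the replicate block, 0 genes were called between the drugs, but 1878 had an unadjusted p under 0.05 in place of 701, and 2038 in place of 265 for the interaction.

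The oxidative phosphorylation median was 0.23 in females only and 0.0712 in males only, the highest and lowest values over the 31 alternatives, and 0.13 to 0.18 when each library was left out. Gm28048 was at 0.030 with the batch term. Signs reversed for Dusp1 at -0.27, Junb at -0.19 and Npas4 at -0.14 with the batch term, and at -0.14, -0.18 and -0.094 within batch P40_L2. The cause was not tested. With 1 fluoxetine library in P40_L2, a female, the within-batch values rest on that library and the lithium females. Its spread is assumed to be that of the lithium libraries.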
